A study of Mus musculus with 9 samples.

Results

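Genes of one-carbon metabolism, of serine and glycine synthesis and of the amino acid response to the transcription factor ATF4 were examined in J1 mouse embryonic stem cells. The list held 37 genes chosen by name and function, with earlier results of these data known. Of these, 36 had a probe and were tested among 26866 features. No probe matched the remaining gene, Pycr1, and it was not analysed here. J1 is an established line of strain 129S4/SvJae, here adapted to gelatin without feeder cells. All 9 samples received 1000 U/mL of leukaemia inhibitory factor (LIF), serum replacement, glutamine and non-essential amino acids. For 24 h, 3 samples were given the solvent DMSO, 3 were given 3 µM CHIR99021, an inhibitor of the kinase GSK3, and 3 were given 1 mM AICAR, whose phosphorylated form activates the kinase AMPK. The labels do not say whether the 3 samples of a group were separate cultures, so the error behind each p-value is the spread of these samples, and that spread may be technical. Each sample was 1 Agilent array with a single dye, and every value below is a log2 level relative to the 75th percentile of its array.

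One-carbon metabolism carries single carbon units on folate. Serine gives up such a unit when it is turned into glycine, in the cytosol or in mitochondria, and the units go into purines, thymidylate and methionine. AICAR monophosphate is itself an intermediate of purine synthesis that takes a formyl group from folate. Mouse embryonic stem cells are known to break down threonine through threonine dehydrogenase as a source of glycine and carbon units. ATF4 is the transcription factor that is translated when the initiation factor eIF2 alpha is phosphorylated, for example when amino acids run short, and it switches on serine synthesis enzymes, asparagine synthetase, amino acid transporters and its own partners and antagonists.

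ATF4 binds with C/EBP proteins at a composite element whose letters are TGATGNAA on either strand. The 250 bases before the start site were taken for each gene from RefSeq (assembly GRCm38.p6), which gave 31 of the 37 members a window. Aldh1l2, Cth, Slc1a5, Slc7a3, Slc7a5 and Tdh had no window and were not searched for any element. The element occurred in 4 of these 31 (12.9%), namely Asns, Chac1, Got1 and Pycr1, and in 955 of all 27025 windows (3.53%). The stricter form TTGCATCA, which is a subset of it, occurred in 3 of the 31 and in 0.825% of all windows. The 3 measured members with the element are printed 5′ to 3′ on the strand of the gene because Asns and Chac1 moved in different directions under CHIR99021 while Got1 was not called, as given further on. Capitals mark the element. The first is Asns (chr6:7693210-7693459, minus strand), with the element at bases -23 to -16 from the start site. In Chac1 (chr2:119350992-119351241, plus strand) it lies on the opposite strand at -193 to -186, and in Got1 (chr19:43524606-43524855, minus strand) on the opposite strand at -102 to -95.
Asns: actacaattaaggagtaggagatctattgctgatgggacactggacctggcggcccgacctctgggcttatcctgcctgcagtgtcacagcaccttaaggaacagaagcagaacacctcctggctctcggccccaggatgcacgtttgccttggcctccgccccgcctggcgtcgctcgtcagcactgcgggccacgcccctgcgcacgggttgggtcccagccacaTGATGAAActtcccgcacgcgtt
Chac1: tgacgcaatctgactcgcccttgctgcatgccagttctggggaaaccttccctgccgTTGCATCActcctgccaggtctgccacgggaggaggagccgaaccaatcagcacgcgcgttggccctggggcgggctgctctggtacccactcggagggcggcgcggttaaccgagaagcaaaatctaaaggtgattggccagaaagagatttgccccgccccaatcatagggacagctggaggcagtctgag
Got1: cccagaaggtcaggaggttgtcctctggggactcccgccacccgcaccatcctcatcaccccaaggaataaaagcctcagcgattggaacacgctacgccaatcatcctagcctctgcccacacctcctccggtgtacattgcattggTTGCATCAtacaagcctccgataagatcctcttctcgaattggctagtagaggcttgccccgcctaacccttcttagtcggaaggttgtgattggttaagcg
The element of the Wnt effectors TCF and LEF, searched as CTTTGAA on both strands, occurred in 1 of the 31 member windows, that of Slc3a2, and in 4.63% of all windows. These matches describe letters in a window and are not measured binding sites.

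Under CHIR99021, 18 members fell and 11 rose against DMSO, and 7 did not pass the test. Over all 26866 features 20.5% fell and 30.4% rose. The median log2 change was -0.16 for the members and 0.07 for all features, and only Tdh rose more than 2-fold while Chac1, Cth and Slc7a3 fell by more than that. Under AICAR, 18 members fell, 9 rose and 9 did not pass, against 29.6% lower and 30.9% higher over all features. The median change there was -0.17 for the members and 0.03 for all features. Ddit3 was the member higher by over 2-fold, and Chac1, Slc7a3, Mat2a and Atf4 were lower by over 2-fold. Both comparisons used the same 3 DMSO arrays. In this bulk RNA, fewer cells of a type and less RNA per cell cannot be told apart.

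The split of the members depended on the scaling under AICAR. When arrays were scaled on the 8 E1A spike-in probes, the median change of all features under AICAR moved from 0.026 to 0.166 and the members split into 8 lower and 9 higher, with 4343 features lower and 9049 higher. Quantile normalization gave 12 lower and 11 higher members under AICAR, with 7079 features lower and 8518 higher. The deposited series matrix gave 11 and 12 members, with 7023 features lower and 8561 higher. Under CHIR99021 the members split 12 lower and 8 higher with the spike-in scaling, while all features turned from 8180 higher and 5516 lower to 4428 and 4699.

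**Figure D1:**
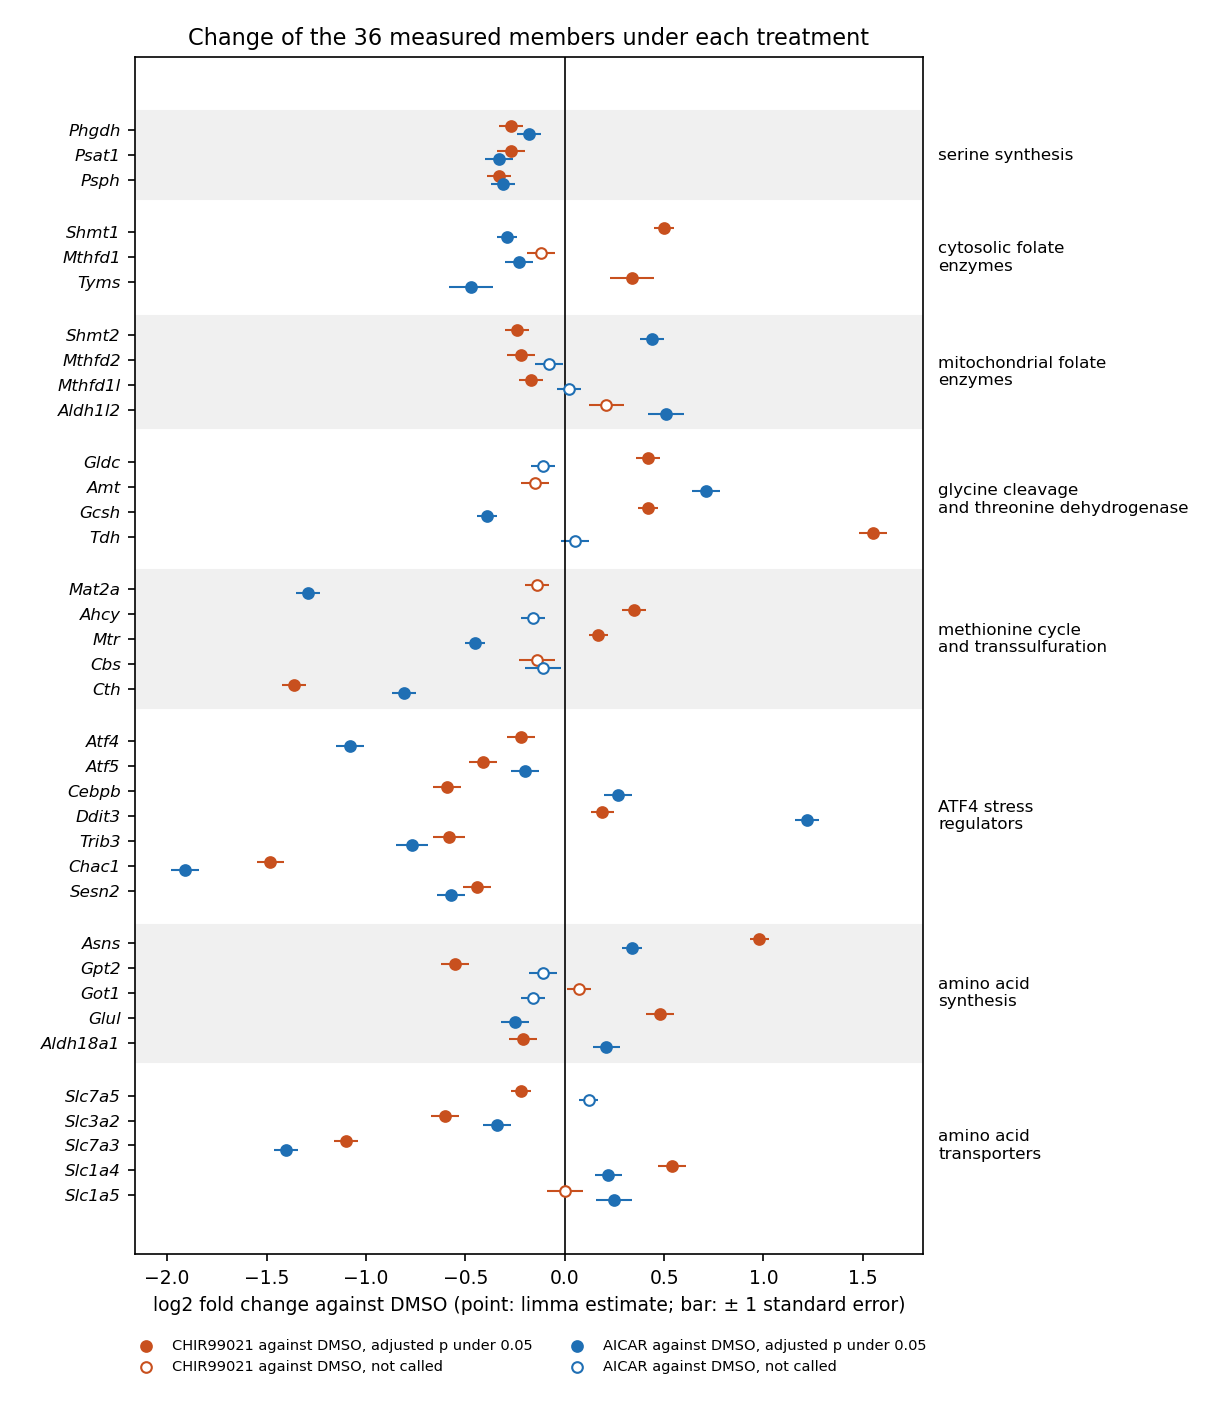
Log2 fold change of the 36 measured members against DMSO, grouped by role, with CHIR99021 in orange and AICAR in blue (limma estimate ± 1 standard error, n = 3 arrays per group; filled points passed at an adjusted p under 0.05). Chac1, Cth and Slc7a3 lie left of 0 under both treatments, Tdh lies at 1.55 under CHIR99021 and 0.05 under AICAR, and Ddit3 at 0.19 and 1.22.

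The 3 enzymes that make serine from the glycolytic intermediate 3-phosphoglycerate fell together under CHIR99021, by 0.27 to 0.33 on the log2 scale for the brightest probes. Phgdh, the first enzyme, read 4.44, 4.49 and 4.52 on the DMSO arrays, 4.16, 4.27 and 4.20 under CHIR99021 and 4.39, 4.29 and 4.24 under AICAR. All treated arrays lay below all DMSO arrays. Its log2 change was -0.27 ± 0.06 (SE, adjusted p = 0.00435) under CHIR99021 and -0.18 ± 0.06 (adjusted p = 0.0256) under AICAR. Psat1, the aminotransferase of the second step, changed by -0.27 ± 0.07 (adjusted p = 0.0158) and -0.33 ± 0.07 (adjusted p = 0.00524). The dimmer Psat1 probe gave -0.68 under CHIR99021 (adjusted p = 0.00321) and -0.72 under AICAR (adjusted p = 0.00173). Psph, the phosphatase that releases serine, changed by -0.33 ± 0.06 (adjusted p = 0.00194) and -0.31 ± 0.06 (adjusted p = 0.00212). Neither gene's treated arrays overlapped its DMSO arrays. The AICAR calls of all 3 were lost with quantile normalization, with the series matrix and with the spike-in scaling, where Phgdh stood at 0.02, 0.02 and -0.04, Psat1 at -0.14, -0.15 and -0.19, and Psph at -0.14, -0.14 and -0.17. The CHIR99021 calls of all 3 held under those scalings, but that of Psat1 was lost without DMSO array 3 (adjusted p = 0.0564), and the AICAR call of Phgdh was lost without DMSO array 2 or 3 or AICAR array 2 or 3 (adjusted p = 0.0649 to 0.0809).

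In the cytosolic arm of the folate cycle, Shmt1 and Tyms moved in opposite directions under the 2 treatments. Shmt1, which moves a carbon unit from serine to folate in the cytosol, read 1.47, 1.42 and 1.51 with DMSO, 1.95, 1.96 and 1.98 with CHIR99021 and 1.25, 1.09 and 1.19 with AICAR. The 3 groups were apart, with CHIR99021 highest and AICAR lowest. The gene rose by 0.50 ± 0.05 (adjusted p = 0.00016) under CHIR99021 and changed by -0.29 ± 0.05 (adjusted p = 0.00216) under AICAR. Tyms, thymidylate synthase, read -0.42, -0.20 and -0.36 with DMSO, 0.14, 0.01 and -0.11 with CHIR99021 and -0.94, -0.89 and -0.57 with AICAR. It showed the same order of groups without overlap, at 0.34 ± 0.11 (adjusted p = 0.0385) and -0.47 ± 0.11 (adjusted p = 0.00788). Mthfd1, the enzyme that interconverts the cytosolic folate forms, stood at -0.12 ± 0.07 (adjusted p = 0.181) under CHIR99021 and at -0.23 ± 0.07 (adjusted p = 0.0156) under AICAR. The CHIR99021 call of Tyms was lost without DMSO array 1 or 3 or CHIR99021 array 1 or 2 (adjusted p = 0.0825 to 0.119). A block for replicate number (adjusted p = 0.0777), no filter on dim probes (adjusted p = 0.0509) and the series matrix (0.31) also ended it. The AICAR call of Mthfd1 was lost without DMSO array 1 (adjusted p = 0.056), with quantile normalization (adjusted p = 0.542) and in the series matrix (adjusted p = 0.512). With the spike-in scaling the AICAR values were -0.15 for Shmt1, -0.33 for Tyms and -0.09 for Mthfd1, none of them called, and Tyms under CHIR99021 was 0.28 (adjusted p = 0.202).

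The mitochondrial arm went the other way for its serine hydroxymethyltransferase. Shmt2 read 3.78, 3.77 and 3.78 with DMSO, 3.42, 3.65 and 3.54 with CHIR99021 and 4.27, 4.16 and 4.21 with AICAR. CHIR99021 arrays were the lowest and AICAR arrays the highest, again without overlap. The change was -0.24 ± 0.06 (adjusted p = 0.0149) under CHIR99021 and 0.44 ± 0.06 (adjusted p = 0.000564) under AICAR. Of the 4 mitochondrial folate enzymes, 3 fell under CHIR99021 and none rose (20.5% and 30.4% over all features). Under AICAR 2 of them rose and none fell (30.9% and 29.6% over all features). Mthfd2, which oxidises the folate-bound unit in mitochondria, changed by -0.22 ± 0.07 (adjusted p = 0.0285) under CHIR99021 and by -0.08 (adjusted p = 0.375) under AICAR. Mthfd1l, which releases the unit as formate, gave -0.17 ± 0.06 (adjusted p = 0.047) and 0.02 (adjusted p = 0.763), the latter passing as higher with quantile normalization (0.20, adjusted p = 0.0143) and in the series matrix (0.19, adjusted p = 0.0227). Aldh1l2, which burns it to carbon dioxide, rose under AICAR by 0.51 ± 0.09 (adjusted p = 0.00115) and stood at 0.21 ± 0.09 (adjusted p = 0.0747) under CHIR99021, which passed without AICAR array 2 (adjusted p = 0.0139) or 3 (adjusted p = 0.0335). The spike-in scaling left none of the CHIR99021 falls called (adjusted p = 0.0657 for Shmt2, 0.0731 for Mthfd2 and 0.133 for Mthfd1l). The Mthfd2 call was also lost without DMSO array 2 or 3 or CHIR99021 array 1 (adjusted p = 0.0859 to 0.0928), and the Mthfd1l call without DMSO array 2 or 3, any CHIR99021 array, or AICAR array 2 or 3 (adjusted p = 0.0544 to 0.152).

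Threonine dehydrogenase (Tdh) showed the largest rise of any member under CHIR99021. It read 6.57, 6.45 and 6.49 with DMSO, 8.04, 8.13 and 7.98 with CHIR99021 and 6.69, 6.50 and 6.49 with AICAR. CHIR99021 arrays stood far above the other two groups, which overlapped. The rise was 2.92-fold (log2 change 1.55 ± 0.07, adjusted p = 1.83e-06), and under AICAR the change was 0.05 (adjusted p = 0.54), with the same values from both Tdh probes; in the series matrix the AICAR value was 0.19 (adjusted p = 0.0381). The glycine cleavage system splits glycine in mitochondria to load a carbon unit on folate. Gcsh, its lipoyl carrier protein, read 5.64, 5.61 and 5.60 with DMSO, 6.04, 6.06 and 6.01 with CHIR99021 and 5.31, 5.18 and 5.18 with AICAR. It was highest with CHIR99021 and lowest with AICAR on every array, at 0.42 ± 0.05 (adjusted p = 0.000268) and -0.39 ± 0.05 (adjusted p = 0.00026), and its 3 probes had the same signs. Amt, the aminomethyltransferase, read -1.32, -1.21 and -1.25 with DMSO, -1.44, -1.45 and -1.36 with CHIR99021 and -0.57, -0.41 and -0.68 with AICAR. The AICAR arrays were the high ones, by 0.71 ± 0.07 (adjusted p = 8.86e-05), and the CHIR99021 value of -0.15 did not pass (adjusted p = 0.119), although it did with quantile normalization (-0.21, adjusted p = 0.0483), in the series matrix (-0.22, adjusted p = 0.0434) and in a fit of the 2 groups alone (adjusted p = 0.0498). Gldc, the decarboxylase, rose under CHIR99021 by 0.42 ± 0.06 (adjusted p = 0.00104) and stood at -0.11 (adjusted p = 0.181) under AICAR. With the spike-in scaling Gcsh under AICAR was -0.25 (adjusted p = 0.076).

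**Figure D2:**
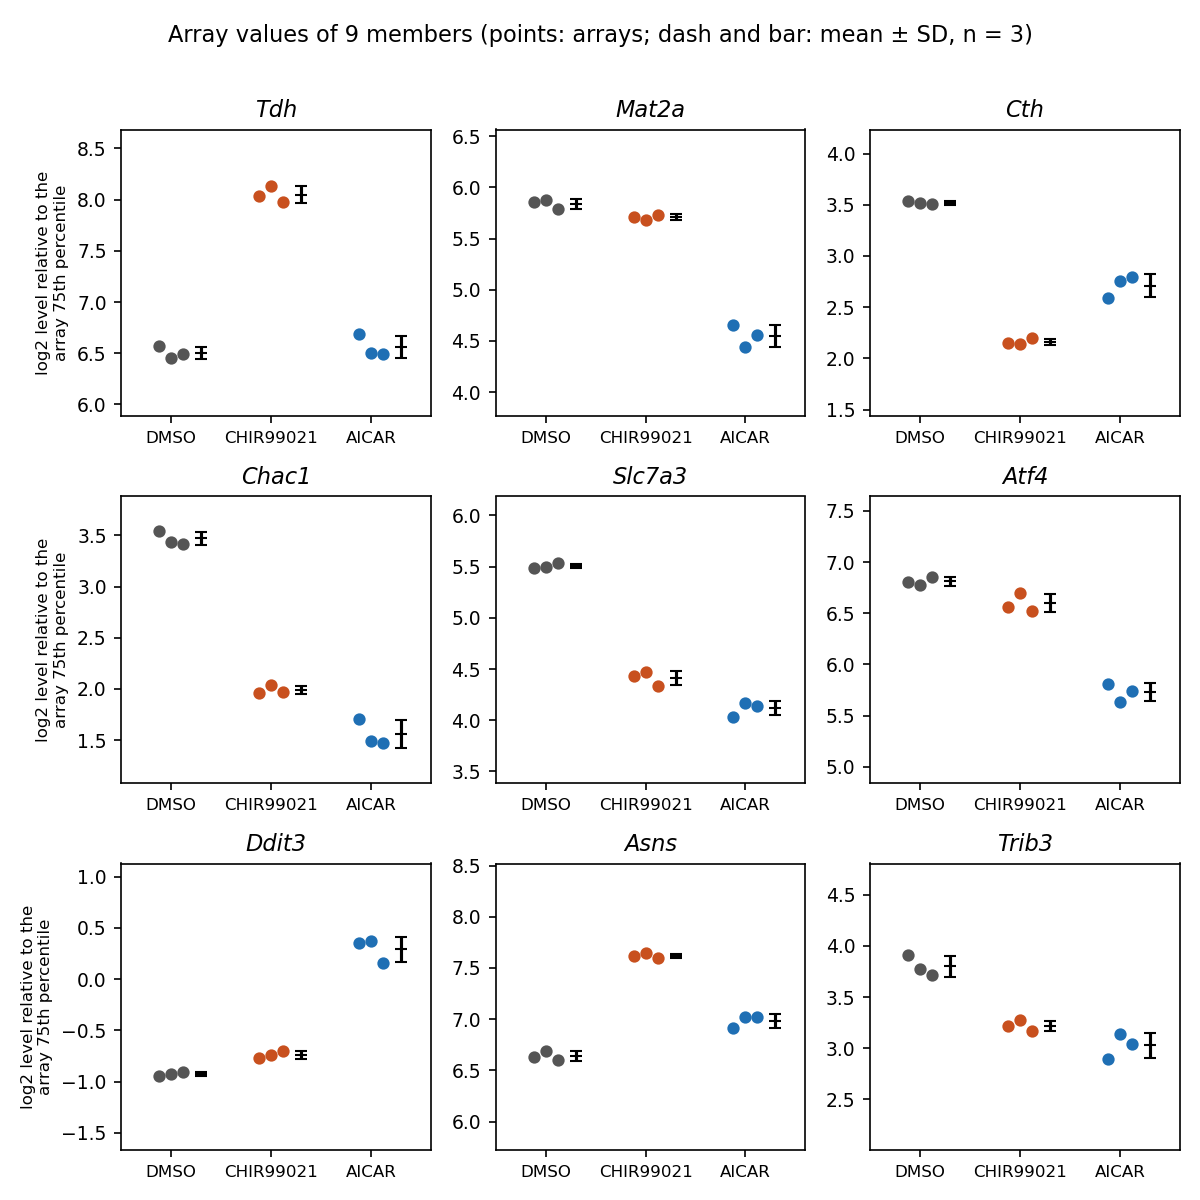
Log2 level relative to the 75th percentile of the array for 9 members, with each array as a point and the mean ± SD (n = 3) beside it; every panel spans the same number of log2 units. Tdh and Asns are highest on the CHIR99021 arrays, Mat2a and Atf4 are lowest and Ddit3 highest on the AICAR arrays, and Cth, Chac1, Slc7a3 and Trib3 are lower on all 6 treated arrays than on any DMSO array.

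In the methionine cycle, Mat2a fell under AICAR and Cth fell under both treatments. Mat2a, which makes the methyl donor S-adenosylmethionine, read 5.86, 5.88 and 5.79 with DMSO, 5.71, 5.68 and 5.73 with CHIR99021 and 4.66, 4.44 and 4.56 with AICAR. The AICAR arrays were far below the others, 2.44-fold lower than DMSO (log2 change -1.29 ± 0.06, adjusted p = 1.54e-06), and the dimmer Mat2a probe gave -1.97. Under CHIR99021 the value was -0.14 (adjusted p = 0.104), and it passed with quantile normalization (-0.22, adjusted p = 0.0214), the series matrix (-0.21, adjusted p = 0.0264), the mean of its probes (-0.26, adjusted p = 0.0339), normexp (-0.15, adjusted p = 0.0429) and a fit of the 2 groups alone (adjusted p = 0.0448). Cth, which cleaves cystathionine to cysteine, read 3.54, 3.52 and 3.51 with DMSO, 2.15, 2.14 and 2.20 with CHIR99021 and 2.59, 2.76 and 2.79 with AICAR. The 3 groups were apart, with CHIR99021 lowest, at 2.57-fold below DMSO (log2 change -1.36 ± 0.06, adjusted p = 1.61e-06), and AICAR at 1.75-fold below (-0.81 ± 0.06, adjusted p = 1.43e-05). Cbs, the enzyme that makes cystathionine, overlapped between all groups, at -0.14 (adjusted p = 0.224) and -0.11 (adjusted p = 0.323).

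Methionine synthase (Mtr), which takes the folate-bound methyl group, read 2.12, 2.10 and 2.15 with DMSO, 2.35, 2.26 and 2.28 with CHIR99021 and 1.67, 1.73 and 1.64 with AICAR. CHIR99021 arrays were highest and AICAR arrays lowest, by 0.17 ± 0.05 (adjusted p = 0.0166) and -0.45 ± 0.05 (adjusted p = 8.79e-05). The dimmer Mtr probe gave 0.03 under CHIR99021 (adjusted p = 0.75) and -0.47 under AICAR (adjusted p = 0.000547). Ahcy, which clears the product of methylation, rose under CHIR99021 by 0.35 ± 0.06 (adjusted p = 0.00188) and stood at -0.16 (adjusted p = 0.0534) under AICAR, or at -0.20 (adjusted p = 0.0273) without AICAR array 2. The CHIR99021 call of Mtr was lost without DMSO array 2 (adjusted p = 0.0582) or CHIR99021 array 1 (adjusted p = 0.0619), and its value was 0.11 (adjusted p = 0.409) with the spike-in scaling and 0.10 with quantile normalization (adjusted p = 0.131) and with the mean of its probes (adjusted p = 0.112).

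The 7 genes grouped as regulators and targets in the ATF4 response all passed the test under both treatments. With CHIR99021 6 were lower and 1 higher (20.5% and 30.4% over all features), and with AICAR 5 lower and 2 higher (29.6% and 30.9%). Atf4 itself read 6.80, 6.78 and 6.85 with DMSO, 6.56, 6.70 and 6.52 with CHIR99021 and 5.81, 5.63 and 5.74 with AICAR. The AICAR arrays were lowest, 2.12-fold below DMSO (log2 change -1.08 ± 0.07, adjusted p = 4.75e-06), and the CHIR99021 arrays lay just under DMSO (-0.22 ± 0.07, adjusted p = 0.0258). The dimmer Atf4 probe gave -0.57 under CHIR99021 (adjusted p = 0.00262) and -1.32 under AICAR. These are transcript levels and say nothing of ATF4 protein, which is set largely by translation. Chac1, an ATF4 target that breaks down glutathione, read 3.54, 3.44 and 3.42 with DMSO, 1.96, 2.04 and 1.97 with CHIR99021 and 1.71, 1.49 and 1.47 with AICAR. All 6 treated arrays were far below DMSO, by 2.78-fold with CHIR99021 (log2 change -1.48 ± 0.07, adjusted p = 2.78e-06) and by 3.75-fold with AICAR (-1.91 ± 0.07, adjusted p = 5.89e-07). Trib3, a pseudokinase that restrains ATF4, read 3.91, 3.77 and 3.72 with DMSO, 3.22, 3.28 and 3.17 with CHIR99021 and 2.90, 3.14 and 3.04 with AICAR. It too was low on every treated array (-0.58 ± 0.08, adjusted p = 0.000483, and -0.77 ± 0.08, adjusted p = 6.66e-05). Sesn2, an inhibitor of mTORC1 that senses leucine, changed by -0.44 ± 0.07 (adjusted p = 0.000812) and -0.57 ± 0.07 (adjusted p = 0.000134). The CHIR99021 call of Atf4 was lost without any 1 of the DMSO arrays or CHIR99021 array 1 or 3 (adjusted p = 0.0505 to 0.0836) and with the spike-in scaling (adjusted p = 0.102).

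Ddit3 ran apart from those genes under both treatments, and Cebpb did so under AICAR only. Ddit3, which encodes the stress factor CHOP, read -0.95, -0.93 and -0.91 with DMSO, -0.77, -0.74 and -0.70 with CHIR99021 and 0.35, 0.37 and 0.16 with AICAR. The AICAR arrays stood well above the rest, 2.33-fold over DMSO (log2 change 1.22 ± 0.06, adjusted p = 2.11e-06), while Atf4 was lowest on the same arrays. Its CHIR99021 change of 0.19 ± 0.06 (adjusted p = 0.0335) was not called without any 1 of the 6 DMSO and CHIR99021 arrays (adjusted p = 0.0578 to 0.0947), nor with the spike-in scaling (adjusted p = 0.291) or quantile normalization (adjusted p = 0.0804). Cebpb, a partner of ATF4 at the composite element, read 0.75, 0.61 and 0.62 with DMSO, 0.02, 0.18 and 0.00 with CHIR99021 and 0.90, 0.92 and 0.98 with AICAR. CHIR99021 arrays were lowest and AICAR arrays highest, at -0.59 ± 0.07 (adjusted p = 0.000212) and 0.27 ± 0.07 (adjusted p = 0.00865). Atf5, a relative of ATF4, fell under CHIR99021 by 0.41 on the log2 scale (SE 0.07, adjusted p = 0.00223). Its AICAR arrays overlapped DMSO (-0.20 ± 0.07, adjusted p = 0.0458), and the call was lost without DMSO array 1 or 2, any CHIR99021 array, or AICAR array 1 or 3 (adjusted p = 0.0634 to 0.136) and with the spike-in scaling (adjusted p = 0.636) or quantile normalization (adjusted p = 0.539).

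**Figure D3:**
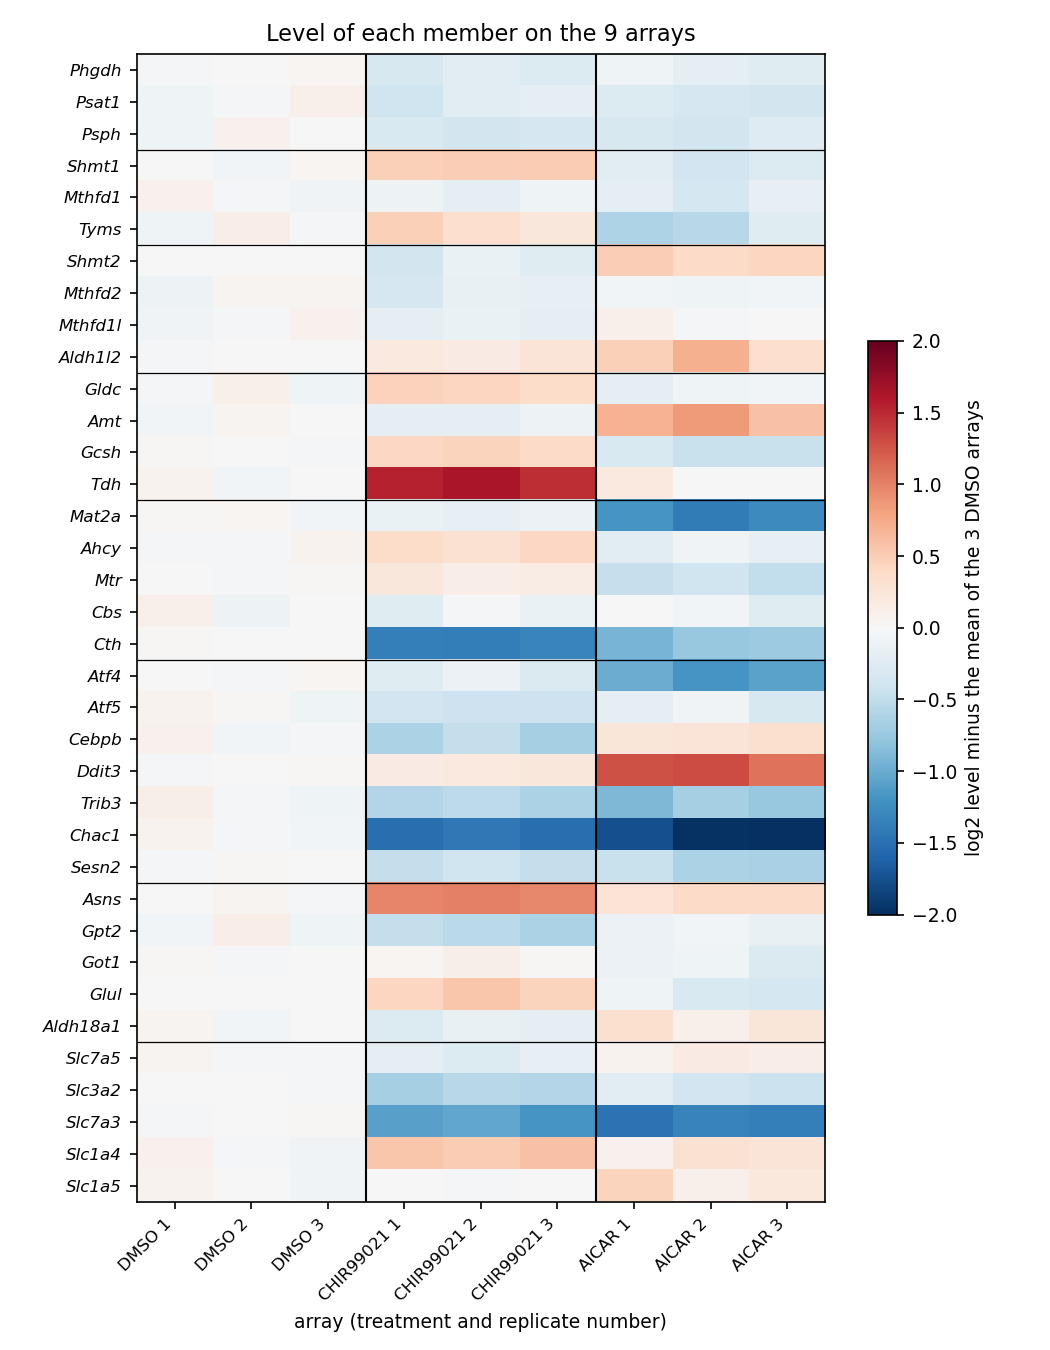
Level of each of the 36 members on the 9 arrays, as the log2 level minus the mean of the 3 DMSO arrays (red higher, blue lower; the colour scale ends at 2 in either direction), with lines between the roles. Arrays of a group resemble each other, and Tdh and Asns are the deepest red under CHIR99021 while Chac1, Slc7a3, Mat2a and Atf4 are the deepest blue under AICAR.

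Among the enzymes that make other amino acids, asparagine synthetase (Asns), a known ATF4 target, rose under both treatments. It read 6.63, 6.69 and 6.60 with DMSO, 7.62, 7.65 and 7.60 with CHIR99021 and 6.91, 7.02 and 7.02 with AICAR. CHIR99021 arrays were highest and DMSO arrays lowest, with a rise of 1.98-fold under CHIR99021 (log2 change 0.98 ± 0.05, adjusted p = 3.34e-06) and of 1.27-fold under AICAR (0.34 ± 0.05, adjusted p = 0.000616). Its promoter and that of Chac1, printed above, both hold the composite element, and the 2 genes moved in opposite directions under each treatment. Got1, the cytosolic aspartate aminotransferase and the other measured gene with the element, stood at 0.07 (adjusted p = 0.397) and -0.16 (adjusted p = 0.0547), the latter being -0.20 (adjusted p = 0.0369) without AICAR array 2 and -0.26 (adjusted p = 0.00691) with normexp.

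Glutamine synthetase (Glul) read 2.14, 2.15 and 2.15 with DMSO, 2.58, 2.71 and 2.60 with CHIR99021 and 2.06, 1.84 and 1.80 with AICAR. It was highest with CHIR99021 (0.48 ± 0.07, adjusted p = 0.000983) and lowest with AICAR (-0.25 ± 0.07, adjusted p = 0.0201). Aldh18a1, which starts proline synthesis, read 0.79, 0.68 and 0.73 with DMSO, 0.46, 0.58 and 0.53 with CHIR99021 and 1.05, 0.83 and 0.97 with AICAR. The groups were ordered the other way round, at -0.21 ± 0.07 (adjusted p = 0.0309) and 0.21 ± 0.07 (adjusted p = 0.026). Gpt2, the mitochondrial alanine aminotransferase, fell under CHIR99021 by 0.55 on the log2 scale (SE 0.07, adjusted p = 0.000476) and stood at -0.11 (adjusted p = 0.238) under AICAR. The Aldh18a1 call was lost under CHIR99021 without DMSO array 1 or 3 or CHIR99021 array 1 or 3 (adjusted p = 0.0685 to 0.0979) and under AICAR without DMSO array 2 or 3 or AICAR array 1 or 3 (adjusted p = 0.0661 to 0.0854). The AICAR call of Glul was lost without DMSO array 2 or 3 or AICAR array 2 or 3 (adjusted p = 0.0528 to 0.0632), with quantile normalization (adjusted p = 0.0877) and in the series matrix (adjusted p = 0.0958). The spike-in scaling ended it too (adjusted p = 0.465), as well as the CHIR99021 call of Aldh18a1 (adjusted p = 0.13).

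The transporter for arginine and lysine, Slc7a3, fell most of the 5 transporters under both treatments. It read 5.49, 5.50 and 5.54 with DMSO, 4.43, 4.47 and 4.33 with CHIR99021 and 4.03, 4.17 and 4.14 with AICAR. All treated arrays were far below DMSO, 2.15-fold with CHIR99021 (log2 change -1.10 ± 0.06, adjusted p = 3.32e-06) and 2.63-fold with AICAR (-1.40 ± 0.06, adjusted p = 7.41e-07). Slc3a2, the heavy chain that pairs with several transporters, read 5.76, 5.74 and 5.73 with DMSO, 5.08, 5.20 and 5.16 with CHIR99021 and 5.54, 5.36 and 5.32 with AICAR. It fell under both, at -0.60 ± 0.07 (adjusted p = 0.000182) and -0.34 ± 0.07 (adjusted p = 0.0026), the AICAR value being -0.20 with the spike-in scaling (adjusted p = 0.163) and -0.15 in the series matrix (adjusted p = 0.0755).

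Slc1a4, a carrier of serine and alanine, rose by 0.54 ± 0.07 (adjusted p = 0.000363) under CHIR99021 and by 0.22 ± 0.07 (adjusted p = 0.0257) under AICAR. Slc1a5, a glutamine carrier, stood at 0.00 ± 0.09 (adjusted p = 0.981) and at 0.25 ± 0.09 (adjusted p = 0.038). Slc7a5, the leucine carrier that pairs with Slc3a2, changed by -0.22 ± 0.05 (adjusted p = 0.00915) under CHIR99021, a call that the spike-in scaling ended (adjusted p = 0.0635). Under AICAR its brighter probe gave 0.12 (adjusted p = 0.0766) and its dimmer probe -0.47 (adjusted p = 0.00134), and the mean of both probes gave -0.18 (adjusted p = 0.028), so the files do not settle its direction there; with quantile normalization the brighter probe gave 0.21 (adjusted p = 0.0109). The AICAR call of Slc1a4 was lost without DMSO array 2 or 3 or AICAR array 2 or 3 (adjusted p = 0.0713 to 0.0862). That of Slc1a5 was lost without DMSO array 2 or 3, any CHIR99021 array, or AICAR array 1 or 3 (adjusted p = 0.0532 to 0.115).

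Set directly against each other, the treatments differed for 28 of the 36 members, with 15 higher and 13 lower under CHIR99021 than under AICAR. Over all features 36.2% were higher and 24.6% lower. Against the shared DMSO arrays, the brightest probes of Shmt1, Tyms, Gcsh, Mtr and Glul were called up with CHIR99021 and down with AICAR. Those of Shmt2, Cebpb and Aldh18a1 were called the reverse. The dimmer Mtr probe was not called under CHIR99021. Their direct differences follow from those calls and are given as a description, from 0.62 (Mtr) to 0.81 (Gcsh and Tyms) where CHIR99021 was higher and from -0.43 (Aldh18a1) to -0.86 (Cebpb) where it was lower. The widest gaps were those of Tdh at 1.49 ± 0.07 (adjusted p = 1.22e-06), Mat2a at 1.15 ± 0.06 (adjusted p = 2.2e-06) and Ddit3 at -1.03 ± 0.06 (adjusted p = 4.24e-06). The 3 serine synthesis enzymes differed by -0.10 to 0.06 and none passed, but Phgdh was lower under CHIR99021 with quantile normalization (-0.34, adjusted p = 0.000844), the series matrix (-0.34, adjusted p = 0.000983), the spike-in scaling (-0.30, adjusted p = 0.0355) and normexp (-0.14, adjusted p = 0.0493). Psph was lower there with quantile normalization (-0.24, adjusted p = 0.0135) and the series matrix (-0.24, adjusted p = 0.0108). The spike-in scaling moved the median of all features from 0.102 to -0.101 and the members' split to 11 higher and 15 lower, with 4009 features higher and 7936 lower. Calls of Atf5, Mthfd1l and Slc1a5 were lost on leaving out single arrays, Atf5 without DMSO array 2, any CHIR99021 array or AICAR array 1 or 2 (adjusted p = 0.0534 to 0.105), Mthfd1l without CHIR99021 array 1 or 3 or AICAR array 1 (adjusted p = 0.0651 to 0.0702) and Slc1a5 without DMSO array 2, any CHIR99021 array or AICAR array 1 or 3 (adjusted p = 0.0584 to 0.094).

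**Figure D4:**
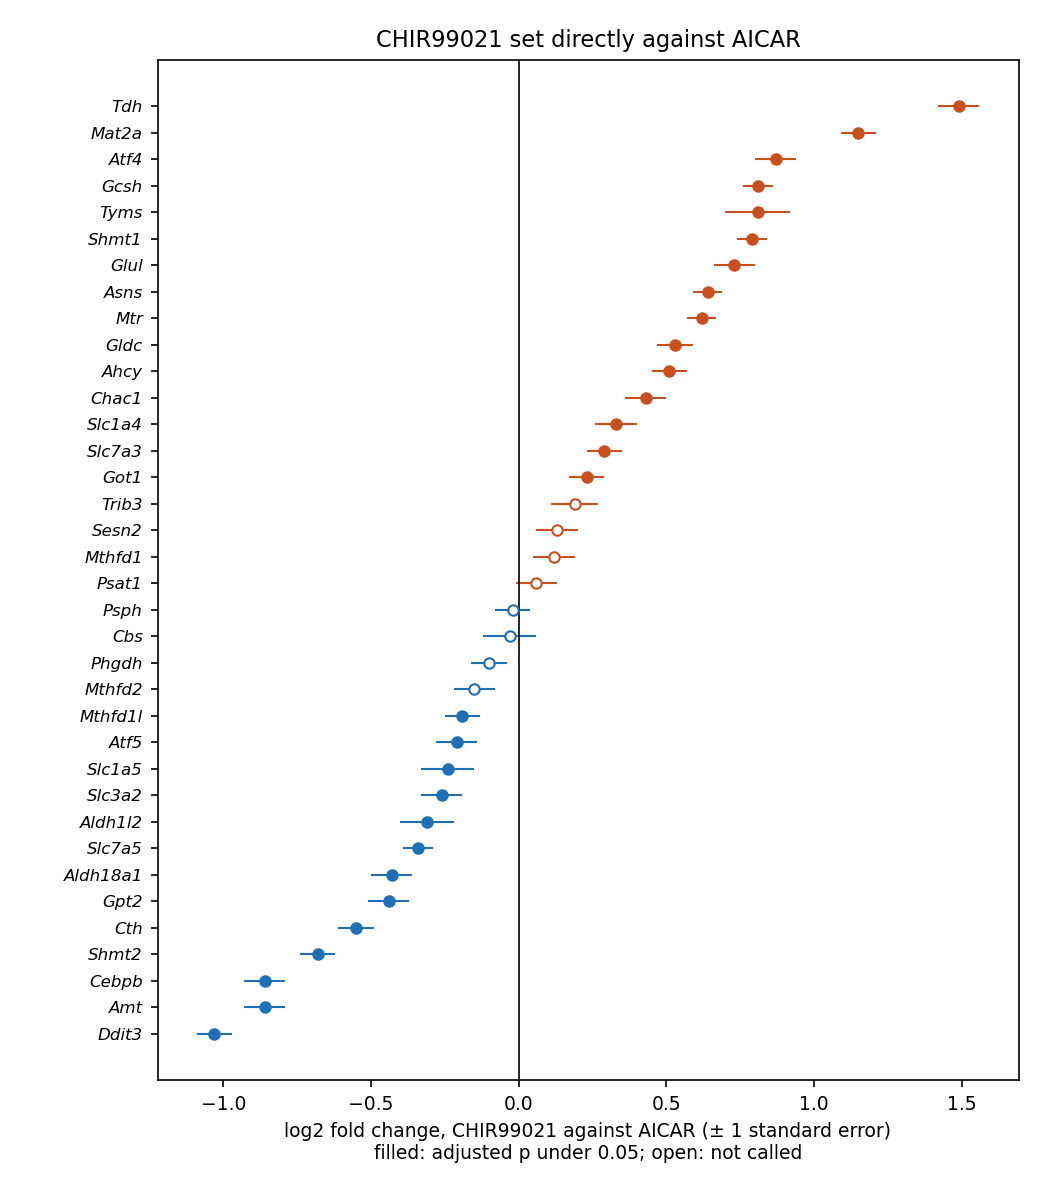
Log2 fold change of each of the 36 members in CHIR99021 against AICAR, sorted by its value (± 1 standard error, n = 3 arrays per group; filled points passed at an adjusted p under 0.05, orange for higher and blue for lower under CHIR99021). Tdh at 1.49 and Mat2a at 1.15 are at one end and Ddit3 at -1.03 at the other, with the serine synthesis enzymes near 0.

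Other genes of the same pathways were read from lists chosen by function, also with earlier results of these data known. The counts stand beside 20.5% lower and 30.4% higher over all features under CHIR99021, and 29.6% and 30.9% under AICAR. Among 13 other folate genes, 6 fell and 2 rose under CHIR99021 and 6 fell and 1 rose under AICAR. Aldh1l1, the cytosolic counterpart of Aldh1l2, rose by 0.91 ± 0.04 and 0.80 ± 0.04, and Folr1, a folate receptor, changed by -0.96 ± 0.06 and -0.73 ± 0.06. Of 16 measured methionine and sulfur genes, 4 rose and 4 fell under CHIR99021, and 7 rose and 8 fell under AICAR. Cdo1, which oxidises cysteine, rose 4.16-fold under CHIR99021 (log2 change 2.06 ± 0.07, adjusted p = 5.3e-07), and Gss, glutathione synthetase, by 0.97 ± 0.07. Mat2b, the regulatory partner of Mat2a, stood at -0.17 (adjusted p = 0.125) under CHIR99021. Under AICAR it fell with Mat2a (-0.61, adjusted p = 0.000382), as did Srm, a spermidine synthase (-0.90 ± 0.07, adjusted p = 1.31e-05).

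Of 11 other serine, glycine and threonine genes, 6 rose and 1 fell under CHIR99021 (30.4% and 20.5% over all features). Under AICAR 4 rose and 4 fell (30.9% and 29.6% over all features). Gcat, the enzyme that follows Tdh in threonine breakdown, was chosen after its values were seen and rose by 0.50 ± 0.05 (adjusted p = 6.92e-05) under CHIR99021 and 0.29 ± 0.05 (adjusted p = 0.00089) under AICAR. Slc6a9, a glycine transporter, changed by -1.05 ± 0.07 and -0.78 ± 0.07, and Srr, serine racemase, by 0.86 ± 0.06 and 1.68 ± 0.06. Of 17 genes of proline, glutamate, aspartate and urea cycle metabolism, 6 rose and 4 fell under CHIR99021 and 5 rose and 6 fell under AICAR. Oat, ornithine aminotransferase, rose by 1.42 ± 0.05 under CHIR99021. The cytosolic branched-chain aminotransferase Bcat1 rose by 1.04 ± 0.07 under CHIR99021 and changed by -0.64 ± 0.07 (adjusted p = 0.000118) under AICAR.

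Of 21 other measured ATF4 and integrated stress genes, 11 fell and 4 rose under CHIR99021 (20.5% and 30.4% over all features). Under AICAR 6 fell and 8 rose (29.6% and 30.9% over all features). Slc38a2, a neutral amino acid transporter, changed by -1.13 ± 0.06 under CHIR99021 and -2.12 ± 0.06 under AICAR (adjusted p = 3.35e-06 and 1.77e-07). Txnip, which responds to glucose and nutrient state, read 2.51, 2.50 and 2.45 with DMSO, 1.28, 1.30 and 1.26 with CHIR99021 and 4.57, 4.53 and 4.73 with AICAR, so that it was lowest with CHIR99021 and highest with AICAR. Ddit4, an inhibitor of mTORC1, rose by 1.78 ± 0.16 (adjusted p = 3.95e-05) under AICAR and stood at -0.19 (adjusted p = 0.367) under CHIR99021, or at -0.39 (adjusted p = 0.00995) without CHIR99021 array 2. Atf3, a target of ATF4, rose by 0.45 (adjusted p = 0.000849) under AICAR and stood at 0.01 (adjusted p = 0.888) under CHIR99021. The cystine transporter Slc7a11 and Fgf21 did not pass the filter on background.

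Upstream of ATF4, 8 genes for eIF2 alpha, its kinases, their regulators and its phosphatase were measured. Of these, 2 rose and none fell under CHIR99021 (30.4% and 20.5% over all features). Under AICAR 2 rose and 4 fell (30.9% and 29.6% over all features). The rises under CHIR99021 were those of the phosphatase subunits Ppp1r15b (0.35 ± 0.07, adjusted p = 0.00442) and Ppp1cc (0.17 ± 0.04, adjusted p = 0.0122), the latter not called with normexp, quantile or spike-in scaling, the series matrix or the mean of probes (adjusted p = 0.052 to 0.445). Eif2ak4, the kinase GCN2 that senses uncharged tRNA, rose under AICAR by 0.34 (adjusted p = 0.000719), and Impact, which holds GCN2 back, fell by 1.16 on the log2 scale (SE 0.06, adjusted p = 2.31e-06). The kinases Eif2ak1 (-0.78 ± 0.06, adjusted p = 1.31e-05) and Eif2ak2 (-0.61, adjusted p = 0.000143) fell under AICAR, as did Ppp1r15b (-0.83 ± 0.07, adjusted p = 3.12e-05); Eif2ak2 was named after its values were seen. Eif2ak3, the kinase PERK of the endoplasmic reticulum, stood at 0.16 under AICAR (adjusted p = 0.0251), a call lost without any 1 DMSO array or AICAR array 2 (adjusted p = 0.0519 to 0.0764) and with normexp (adjusted p = 0.0996). Of 15 unfolded protein response genes, 2 rose and 2 fell under CHIR99021 and 2 rose and 5 fell under AICAR, where the chaperone Hspa5 changed by -0.47 (adjusted p = 0.000253). Under CHIR99021, Hspa5 stood at 0.02 (adjusted p = 0.76). Herpud1, a gene of the same response, changed by -0.55 ± 0.07 and -0.93 ± 0.06, with 1 CHIR99021 array left out of the fit for an outlier spot.

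Markers of the embryonic stem cell label were present on every array. The summed linear level of 8 of 8 such markers, relative to the 75th percentile, was 536 to 554 with DMSO, 524 to 548 with CHIR99021 and 536 to 582 with AICAR. Single stem cell markers did change: 3 rose and 2 fell under CHIR99021 (30.4% and 20.5% over all features). Under AICAR 4 rose and 2 fell (30.9% and 29.6%). Utf1 changed by -1.22 and -1.16 under CHIR99021 and AICAR, and Esrrb by 0.73 and 0.44. The summed levels of markers of other cell types differed between groups: 8 of 10 trophoblast markers passed the background filter (not Elf5 and Hand1), with sums of 15.4 to 15.9, 25.5 to 26.5 and 27.8 to 28.3. For 10 of 13 fibroblast markers (not Postn, Lum and Fap) the sums were 2.73 to 2.90, 2.81 to 2.97 and 3.86 to 4.60, and for 8 of 8 primitive endoderm markers 0.913 to 0.971, 0.98 to 1.08 and 1.06 to 1.13. Such sums are set by the brightest markers, and single markers went both ways. Under CHIR99021, 5 trophoblast markers rose and 1 fell, 3 fibroblast markers rose and 3 fell, and 3 primitive endoderm markers rose and 3 fell. Under AICAR the counts were 6 and 2, 5 and 4, and 4 and 3. Their part in the results was not tested. The 75th percentile of the processed signal was 567 to 617 over the 9 arrays, and the software called 62.8% to 67.2% of spots clearly brighter than background. The number of arrays limits the precision. No slide held more than 1 group, so slide and treatment cannot be told apart. All 51 probes of the members were well above background on all 9 arrays. None of the probes chosen to stand for a member was saturated. The 14 members with more than 1 probe differed between probes by at most 0.41 under CHIR99021 and 0.68 under AICAR.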

How the data were processed

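Total RNA of the 9 samples was amplified, labelled with Cy3 and hybridised to Agilent arrays, per the labels' protocols. The deposited scanner files give spot intensity on a linear scale, made with Agilent Feature Extraction 10.7.3.1 per the file headers (10.7 in the submitters' processing notes). Log2 values by the authors, in the deposited series matrix, served as an alternative. How they were normalized was not stated in the sources used here; the 9 columns share 1 upper quartile.

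Values analysed were log2 of the processed signal minus the 75th percentile of each array over all spots that are not controls. Spots flagged as outliers were dropped, and a probe's remaining spots averaged. Probes well above background on at least 3 of 9 arrays were kept, 37742 of 55681. Names came from RefSeq (GRCm38.p6) by accession: 27235 probes matched and 28446 did not, and those kept the name in the file. The probe with the highest mean stood for each gene. A single limma model (version 3.58.1, R 4.3.3; lmFit, eBayes) held all 9 arrays. Errors are standard errors with n = 3 arrays per group, p-values are two-sided and Benjamini-Hochberg adjusted over all 26866 features of a comparison, and "rose" or "fell" means an adjusted p under 0.05. The fit was tested on simulated data.

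The members and lists were chosen with earlier results of these data known. Each member is given; array values are given for the 8 called members with the largest change in each comparison with DMSO and for those called in opposite directions, with Phgdh added as the first enzyme of its pathway. From the other lists, some of the 3 called genes with the largest change per comparison and genes listed by function are named; Ftcd and Arg2, near background, were left out, and some genes of that rule are not reported here. The labels state no pairing of arrays by replicate number. Deviations from group means correlated at -0.05 to 0.09 for 9 same-numbered pairs and -0.13 to 0.11 for 18 others. Such values show no pairing by number but cannot exclude it. Normexp used median signals with an offset of 50, because the files hold no mean signals.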

Additional observations from a re-analysis of the deposited data

How the results depend on the processing

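Of the members called under CHIR99021, 19 of 29 stayed called in the same direction in every alternative run, as did 14 of 27 called under AICAR and 19 of 28 called between the treatments. Of the members not called, 4 of 7, 5 of 9 and 6 of 8 gained a call in some alternative. The shares of all features that kept or gained a call are not given here. These counts therefore do not set the members apart from other features. The alternatives were normexp, quantile and spike-in scaling, the series matrix, no filter or a filter on all 9 arrays, the mean of probes or each probe alone, a fit of the 2 groups compared, a replicate block, and leaving out each array. For single genes, the lost and gained calls named above are not a complete list. The count of members lower under AICAR, 18, became 8 with spike-in scaling and 11 in the series matrix. Over all features the lower count went from 7942 to 4343 and 7023. Quantile normalization and the series matrix each turned Phgdh under AICAR from -0.18 to 0.02, and the mean of probes turned Slc7a5 under AICAR from 0.12 to -0.18; the cause was not tested. With the replicate block, although no pairing by number was seen, 9 members were higher and 15 lower under CHIR99021 and 8 and 17 under AICAR. Leaving out 1 array gave 8 to 12 higher and 13 to 18 lower members under CHIR99021, 6 to 9 and 15 to 18 under AICAR, and 15 to 16 and 10 to 13 between the treatments. Counts over all features are not given here for the replicate block or for runs that left out 1 array. The member counts of those runs therefore do not set the members apart from other features. Slide as a block was not run, since each slide holds 1 group.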
